A study of Mus musculus with 8 samples.

Results

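The genes described here are the heat shock and unfolded protein response genes of mouse liver, 37 genes picked by symbol from the 25124 gene rows of the expression table. They fall into a cytosolic heat shock group of 15 genes, a mitochondrial chaperone group of 3 genes and an endoplasmic reticulum (ER) stress group of 19 genes. All 37 were listed above 0 in every library. The study asked which transcripts answer, within 1 h, to activation of the farnesoid X receptor (FXR), the bile acid receptor encoded by Nr1h4. The RNA-seq livers came from C57BL/6 mice kept without food overnight and treated for 1 h with vehicle or with the synthetic FXR agonist GW4064, 30 mg/kg intraperitoneally. There were 2 libraries per treatment, each made from pooled liver RNA of a pair of mice, so p-values measure the spread between pools. For GRO-seq, which labels RNA made by engaged polymerases in isolated nuclei, there was 1 library per genotype and treatment, at the same dose and time. Those libraries are labelled WT and FXR KO; by the study's methods the animals were fasted male Fxr-Flox mice and Fxr-LKO mice, the latter carrying Fxr-Flox and a Cre driven by the albumin promoter, which acts in hepatocytes. The labels name the vehicle DMSO, and the methods name corn oil.

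Heat shock proteins are chaperones that hold or refold other proteins. In the cytosol their genes are driven by heat shock factor, encoded by Hsf1, when unfolded protein builds up. In the ER the same need is met by the unfolded protein response, in which the membrane sensors IRE1 (Ern1), PERK (Eif2ak3) and ATF6 (Atf6) raise ER chaperones, protein disulfide isomerases and the machinery that sends misfolded protein out for degradation. The liver makes most plasma proteins and so runs a large ER folding load.

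The 2 arms carry different elements in their promoters, and the sequences below show them. RefSeq promoter windows (GRCm38.p6, the build also called mm10, 250 bases before to 50 after the start site) were matched by symbol for 30 of the 37 genes. Hsf1, Hspa8, Hsp90aa1, Hsp90ab1, Hspa9, Atf6 and Hyou1 were without a window in the table used. The heat shock element was searched on both strands as 3 alternating units, GAA, TTC and GAA, each 2 bases apart. It stood in 2 of 11 cytosolic windows (Hsph1 and Chordc1), in 2 of 2 mitochondrial windows (Hspd1 and Hspe1) and in 0 of 17 ER windows, against 0.603% of all 32817 windows. With only 2 units (GAANNTTC or TTCNNGAA) the counts were 8 of 11, 2 of 2 and 1 of 17 (Eif2ak3), against 15.1% of all windows. The ER stress element, a CCAAT followed 9 bases later by CCACG, stood in 0 of 11 cytosolic, 0 of 2 mitochondrial and 6 of 17 ER windows, against 0.119% of all windows.

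Hspd1 and Hspe1, which encode the mitochondrial chaperonin and its lid, lie head to head on chromosome 1 with 216 bases between their rows, and the same 2 overlapping heat shock elements (chr1:55088059-55088071 and chr1:55088064-55088076) fell in both windows. The stretch between them is shown on the Hspe1 strand (chr1:55087998-55088107, +), with the bases of both elements in capitals.
Hspe1: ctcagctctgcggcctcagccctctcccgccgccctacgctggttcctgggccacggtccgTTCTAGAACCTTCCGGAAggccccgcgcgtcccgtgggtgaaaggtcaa

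The stress-inducible HSP70 genes Hspa1a and Hspa1b and the small heat shock gene Hspb1 held 2-unit elements upstream of the start site. They are shown because Hspa1a (chr17:34972217-34972286, -) and Hspa1b (chr17:34959299-34959368, -) are near copies, identical at 247 of the 250 bases before the start site, and reads can be shared between such genes. Hspb1 (chr5:135887779-135887848, +) held 2 such elements. Capitals mark GAANNTTC.
Hspa1a: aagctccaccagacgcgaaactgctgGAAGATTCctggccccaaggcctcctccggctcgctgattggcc
Hspa1b: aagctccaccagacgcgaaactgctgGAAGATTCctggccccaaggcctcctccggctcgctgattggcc
Hspb1: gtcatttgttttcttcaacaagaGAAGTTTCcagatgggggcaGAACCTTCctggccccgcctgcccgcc

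The 6 ER genes with an ER stress element were Hspa5 (chr2:34771970-34772059, +), Hsp90b1 (chr10:86705515-86705664, -), Calr (chr8:84847052-84847111, -), Canx (chr11:50325774-50325833, -), Dnajc3 (chr14:118937812-118937871, +) and Pdia6 (chr12:17266469-17266528, +). They are shown so that the spacing of CCAAT and CCACG can be compared, and capitals mark the element, which in Calr and at the second site of Hsp90b1 reads on the opposite strand.
Hspa5: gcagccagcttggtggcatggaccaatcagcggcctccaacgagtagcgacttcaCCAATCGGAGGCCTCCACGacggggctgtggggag
Hsp90b1: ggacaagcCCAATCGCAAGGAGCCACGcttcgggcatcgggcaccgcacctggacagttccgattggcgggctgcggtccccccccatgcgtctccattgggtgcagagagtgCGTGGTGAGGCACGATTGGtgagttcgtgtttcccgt
Calr: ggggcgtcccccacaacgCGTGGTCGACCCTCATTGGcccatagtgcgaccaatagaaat
Canx: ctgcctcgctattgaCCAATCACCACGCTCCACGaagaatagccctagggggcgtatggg
Dnajc3: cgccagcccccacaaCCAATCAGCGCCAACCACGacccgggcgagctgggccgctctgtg
Pdia6: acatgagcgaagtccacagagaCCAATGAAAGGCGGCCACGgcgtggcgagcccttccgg

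A CCAAT box alone, which the ER stress element contains, stood in 15 of 17 ER, 5 of 11 cytosolic and 0 of 2 mitochondrial windows, against 37.4% of all windows. The ATF6/XBP1 core TGACGTGG was found in none of the 30 windows (0.676% of all windows). The ATF4/CEBP composite TGATGNAA was found in 1, that of Herpud1 (3.97% of all windows). The FXR inverted repeat, AGGTCA and TGACCT 1 base apart with at most 1 mismatch, was found in none (0.0823% of all windows). These matches describe letters in a window and say nothing of binding.

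**Figure D1:**
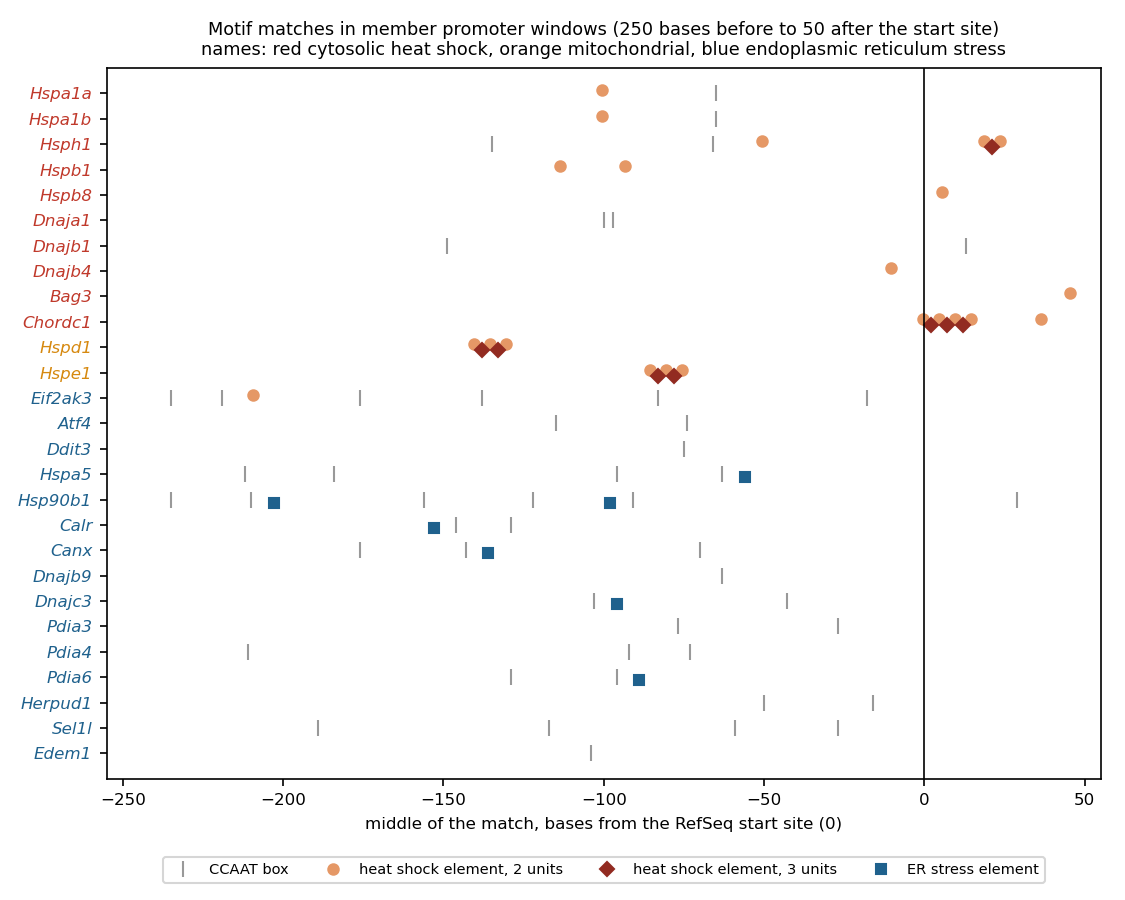
Positions of motif matches in the promoter windows of the members that have any. The x axis is the distance in bases of the middle of each match from the RefSeq start site at 0, each row is a gene, and the symbols mark CCAAT boxes, heat shock elements of 2 and 3 units and ER stress elements. Heat shock elements sit in the cytosolic and mitochondrial rows and, of the ER rows, in that of Eif2ak3, and ER stress elements sit in 6 ER rows.

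The RNA-seq libraries held 13924465 to 14047225 reads, as rebuilt from the RPKM values (reads per kilobase of row, scaled to library depth). The GRO-seq libraries held 14173716 (WT vehicle), 10593323 (WT GW4064), 5141667 (FXR KO vehicle) and 5069394 (FXR KO GW4064) reads. Row lengths ran from start to end of the gene with introns in 24932 of the 25124 rows. Nr1h4, the targeted gene, measured 15.1 and 4.23 RPKM in GRO-seq labelled WT (vehicle and GW4064) and 16.7 and 20.6 RPKM in GRO-seq labelled FXR KO. The Nr1h4 row was therefore not lower in the libraries labelled FXR KO; it spans the whole gene and is not a measure of a single deleted exon. Nr0b2, the classic FXR target that encodes SHP, was at 3.65 and 36.6 RPKM in the libraries labelled WT and at 0.118 and 1.19 RPKM (2 and 20 reads) in those labelled FXR KO. In RNA-seq, Nr0b2 rose by 2.54 on the log2 scale (limma adjusted p = 0.0368). No gene of the 11408 passed limma with the replicate block, or without GW4064 replicate 1, vehicle replicate 2 or GW4064 replicate 2, so this call and that of Ier2 below were lost there. The hepatocyte markers were abundant in every library, with Alb at 68.3 to 77.8 RPKM in RNA-seq.

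At the level of RNA, no member passed the test, and the same was true of each group. Of the 37 members tested with limma on log2(RPKM + 0.1), 0 were higher and 0 lower after GW4064 at an adjusted p under 0.05, beside 2.13% and 1.15% of the 11408 genes tested. At an unadjusted p under 0.05, limma gave 6 members higher (4 cytosolic, 2 mitochondrial, 0 ER) and 6 lower (0 cytosolic, 0 mitochondrial, 6 ER), which is 16.2% of the members in each direction beside 10.6% of all genes higher and 10.6% lower. By group, 26.7% of cytosolic and 66.7% of mitochondrial members were higher, and 31.6% of ER members were lower. With limma-voom on the rebuilt reads, 1 member passed in each direction, Hspd1 (higher, adjusted p = 0.029) and Sel1l (lower, adjusted p = 0.042), beside 4.58% of all genes higher and 4.22% lower. Both GW4064 libraries lay above both vehicle libraries for 11 members (29.7%, beside 26% of all genes) and below them for 9 (24.3%, beside 28.1%), shares over all members that are close to the background. By group, they lay above for 40% and below for 13.3% of cytosolic members. For ER members these shares were 15.8% and 36.8%. All fold changes below are on the log2(RPKM + 0.1) scale with the standard error of limma. In bulk liver, fewer cells of a type and less RNA per cell cannot be told apart.

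**Figure D2:**
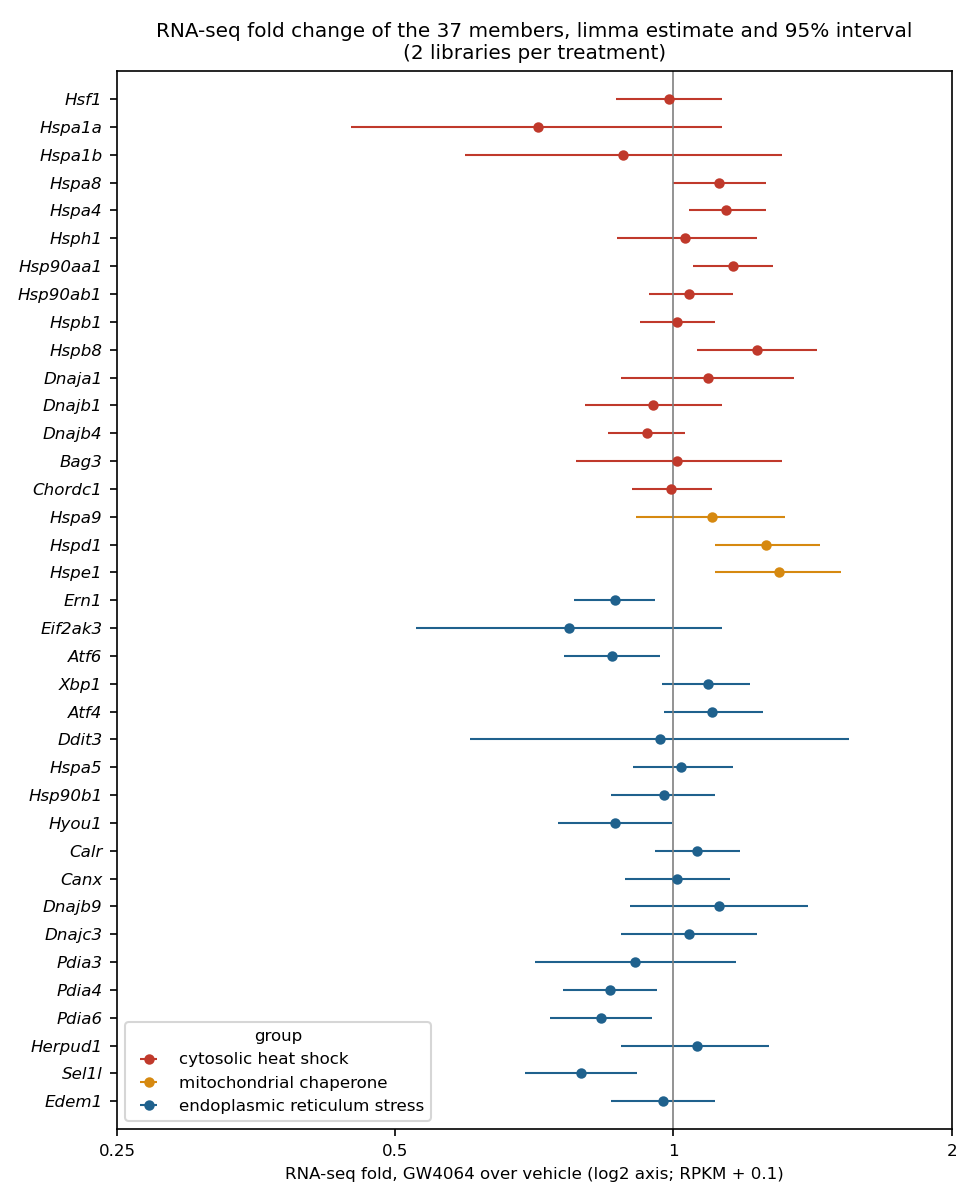
RNA-seq fold of each member, GW4064 over vehicle, on a log2 axis. Points are limma estimates from 2 libraries per treatment and bars are 95% intervals. The 3 mitochondrial genes lie right of 1, from 1.1 to 1.3, and the interval of Hspa9 among them crosses 1. Intervals lie above 1 for Hspd1, Hspe1, Hspa4, Hsp90aa1 and Hspb8, and that of Hspa8 starts at 1. Sel1l, Pdia6, Pdia4, Atf6, Ern1 and Hyou1 lie left of 1 with intervals below 1. No member passed the adjusted test.

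In nascent RNA labelled WT, the members past 1.5-fold higher after GW4064 were cytosolic and mitochondrial and those past 1.5-fold lower were ER genes. In GRO-seq labelled WT, 36 members were measured (Hspa1a was under the mean of 0.5 RPKM), and a member was called when it lay past 1.5-fold with at least 20 reads in 1 library of the pair. GW4064 over vehicle was past 1.5-fold higher for 4 members (Hsp90aa1, Hspb1, Hspb8 and Hspd1, 11.1%, beside 6.1% of the 10169 genes kept) and lower for 2 (Ern1 and Pdia6, 5.56%, beside 6.83%), and the lower share is close to the background. By group, 21.4% of cytosolic and 33.3% of mitochondrial members were higher, and 10.5% of ER members were lower. Centring each library on its median made the counts over all members 7 higher and 2 lower, and 807 and 488 in place of 620 and 695 over all genes. In GRO-seq labelled FXR KO, 0 members were called in either direction (Hspb1, at 2 and 5 reads, was under the read minimum), beside 2.61% of genes higher and 3.11% lower. With 1 library each, these are differences between libraries with no replicate check, and the intervals given below are exact 95% counting intervals from the rebuilt reads, which cover counting error only.

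**Figure D3:**
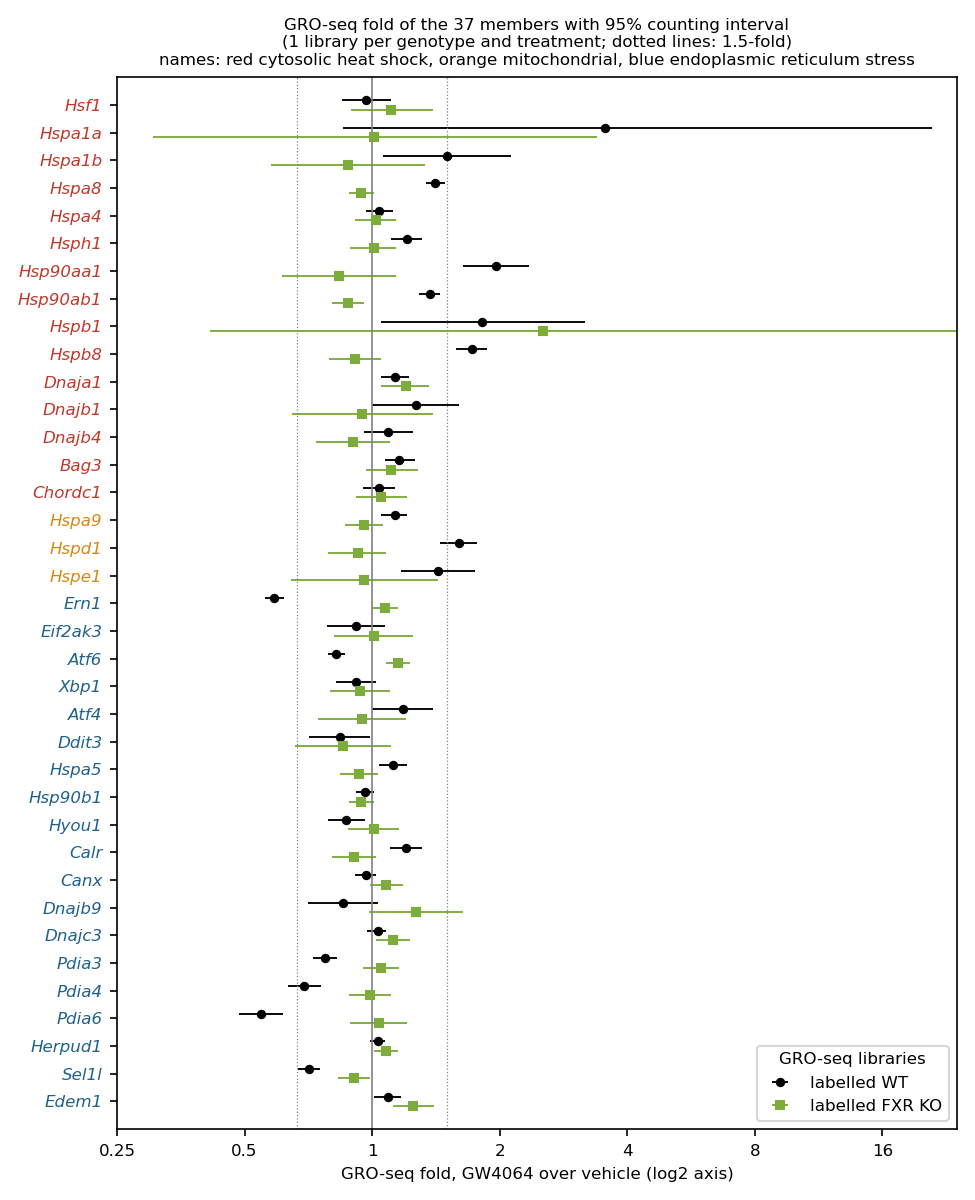
GRO-seq fold of each member, GW4064 over vehicle, on a log2 axis, for the libraries labelled WT (black circles) and FXR KO (green squares). Bars are exact 95% counting intervals and dotted lines mark 1.5-fold. Black points of Hsp90aa1, Hspb1, Hspb8, Hspd1 and the uncalled Hspa1a (3 and 8 reads) stand right and those of Ern1 and Pdia6 left of the dotted lines. The black point of the uncalled Hspa1b stands at the right dotted line. The green bar of Hspb1 (2 and 5 reads) runs past the axis to 26.6.

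Hsf1, the heat shock factor itself (chr15:76477362-76501155, mm10), was level. It measured 1.38 and 1.32 RPKM in the vehicle and 1.28 and 1.39 RPKM in the GW4064 RNA-seq libraries, with overlapping groups (log2 fold change -0.02 ± 0.0671 SE, limma adjusted p = 0.918). In GRO-seq it went from 1.61 to 1.56 RPKM in the libraries labelled WT and from 1.28 to 1.43 RPKM in those labelled FXR KO.

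Hspa8, the constitutive cytosolic HSP70 (chr9:40801276-40805202, 98.4% of the row exonic), was at 17.8 and 17 RPKM with vehicle and 19.6 and 19.6 RPKM with GW4064 in RNA-seq. The groups did not overlap, and the difference did not pass (log2 fold change 0.17 ± 0.0584 SE, limma adjusted p = 0.229). In GRO-seq it went from 45.2 to 63.9 RPKM in the libraries labelled WT, a fold of 1.41 (1.34 to 1.49), and went from 87.3 to 82.4 RPKM in those labelled FXR KO, a fold of 0.943 (0.882 to 1.01). A listed snoRNA row, Snord14c, overlaps 2.19% of the Hspa8 row, and its part in these values was not tested.

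Hspa1b and Hspa1a, the stress-inducible HSP70 pair, had lower RNA-seq means with GW4064, unlike Hspa8, and neither passed. Hspa1b (chr17:34956429-34959238) was at 13.3 and 9.55 RPKM with vehicle and 10.9 and 8.99 RPKM with GW4064 in RNA-seq, overlapping groups (limma adjusted p = 0.657). In GRO-seq it went from 1.63 to 2.45 RPKM in the libraries labelled WT, a fold of 1.5 (1.06 to 2.13), and was not called. In those labelled FXR KO it went from 3.60 to 3.16 RPKM, a fold of 0.878 (0.576 to 1.33). These values rest on only 45 to 73 reads. Hspa1a was at 2.36 and 1.73 RPKM with vehicle and 1.70 and 1.18 RPKM with GW4064 in RNA-seq (limma adjusted p = 0.346), and had 3 to 8 reads in the GRO-seq libraries, too few to compare. The split of reads between both genes is uncertain.

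Hspa4, an HSP110 family nucleotide exchange factor, was chosen for description after its values were seen. It was at 4.02 and 3.94 RPKM with vehicle and 4.55 and 4.57 RPKM with GW4064 in RNA-seq (log2 fold change 0.19 ± 0.0505 SE, limma adjusted p = 0.158), and its GRO-seq fold was 1.04 in the libraries labelled WT and 1.02 in those labelled FXR KO. Hsph1, of the same family, had overlapping RNA-seq groups (log2 fold change 0.05) and GRO-seq folds of 1.21 and 1.01.

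Of both cytosolic HSP90 genes, Hsp90aa1 alone was past 1.5-fold in nascent RNA labelled WT, and it had the largest GRO-seq log2 ratio labelled WT of the 36 members. Hsp90aa1, the inducible form (chr12:110691036-110696395), went from 2.84 to 5.57 RPKM in GRO-seq labelled WT, a fold of 1.96 (1.64 to 2.34), and from 3.52 to 2.94 RPKM in GRO-seq labelled FXR KO, a fold of 0.837 (0.614 to 1.14). Its RNA-seq values were 6.60 and 6.68 RPKM with vehicle and 7.68 and 7.77 RPKM with GW4064, groups that did not overlap (log2 fold change 0.21 ± 0.0517 SE, limma adjusted p = 0.142). Hsp90ab1, the constitutive form (chr17:45567778-45573261), went from 28.3 to 38.6 RPKM in GRO-seq labelled WT, a fold of 1.37 (1.29 to 1.45), and from 38.4 to 33.7 RPKM in GRO-seq labelled FXR KO, a fold of 0.878 (0.803 to 0.959). In RNA-seq Hsp90ab1 was at 31.2 and 30.6 RPKM with vehicle and 32.2 and 32.3 RPKM with GW4064 (log2 fold change 0.06 ± 0.0536 SE, limma adjusted p = 0.575), a sign that turned under quantile normalization.

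Of the small heat shock genes, Hspb8 (chr5:116408491-116422864), the partner of BAG3 in chaperone-assisted autophagy, was at 9.18 and 8.19 RPKM with vehicle and 10.8 and 10.6 RPKM with GW4064 in RNA-seq (log2 fold change 0.30 ± 0.0784 SE, limma adjusted p = 0.157). Its nascent RNA went from 4.88 to 8.39 RPKM in the libraries labelled WT, a fold of 1.72 (1.58 to 1.87), and from 5.53 to 5.05 RPKM in those labelled FXR KO, a fold of 0.913 (0.791 to 1.05). Both assays thus put GW4064 above vehicle for Hspb8 where FXR was not deleted. Hspb1 (chr5:135887919-135889563), encoding HSP25, was level in RNA-seq at 2.62 and 2.60 RPKM with vehicle and 2.62 and 2.65 RPKM with GW4064 (limma adjusted p = 0.898). Its GRO-seq values rest on few reads, 25 and 34 in the libraries labelled WT (1.07 and 1.95 RPKM, a fold of 1.82, 1.05 to 3.18) and 2 and 5 in those labelled FXR KO.

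The 5 cytosolic co-chaperones, Dnaja1, Dnajb1 and Dnajb4 (J-domain partners of HSP70), Bag3 (an HSP70 nucleotide exchange factor) and Chordc1 (an HSP90 partner), differed little. Their RNA-seq log2 fold changes ran from -0.09 (Dnajb4) to 0.12 (Dnaja1). Dnajb4 alone had groups that did not overlap, with 4.96 and 4.92 RPKM with vehicle and 4.64 and 4.59 RPKM with GW4064. GRO-seq folds ran from 1.04 (Chordc1) to 1.27 (Dnajb1) in the libraries labelled WT and from 0.9 (Dnajb4) to 1.2 (Dnaja1) in those labelled FXR KO.

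Of the 37 genes, the mitochondrial chaperonin pair Hspe1 and Hspd1 had the largest positive RNA-seq fold changes. Hspd1, the HSP60 chaperonin (chr1:55077834-55087932), was at 8.58 and 8.70 RPKM with vehicle and 10.5 and 11.4 RPKM with GW4064 (log2 fold change 0.34 ± 0.0659 SE, limma adjusted p = 0.102). Hspe1, its HSP10 lid (chr1:55088148-55091317), was at 6.39 and 7.19 RPKM with vehicle and 8.77 and 8.91 RPKM with GW4064 (log2 fold change 0.38 ± 0.0794 SE, limma adjusted p = 0.114). Neither pair of groups overlapped. In GRO-seq labelled WT, Hspd1 went from 5.25 to 8.39 RPKM, a fold of 1.6 (1.45 to 1.77), and Hspe1 from 4.39 to 6.29 RPKM, a fold of 1.43 (1.17 to 1.75). In GRO-seq labelled FXR KO, Hspd1 went from 6.32 to 5.84 RPKM, a fold of 0.925 (0.788 to 1.08), and Hspe1 from 3.38 to 3.24 RPKM, a fold of 0.959 (0.644 to 1.43). Hspd1 and Hspe1 are the pair that share the promoter shown above, so they are not independent of each other in position. Hspa9, the mitochondrial HSP70, had overlapping RNA-seq groups (log2 fold change 0.13) and GRO-seq folds of 1.13 and 0.958.

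**Figure D4:**
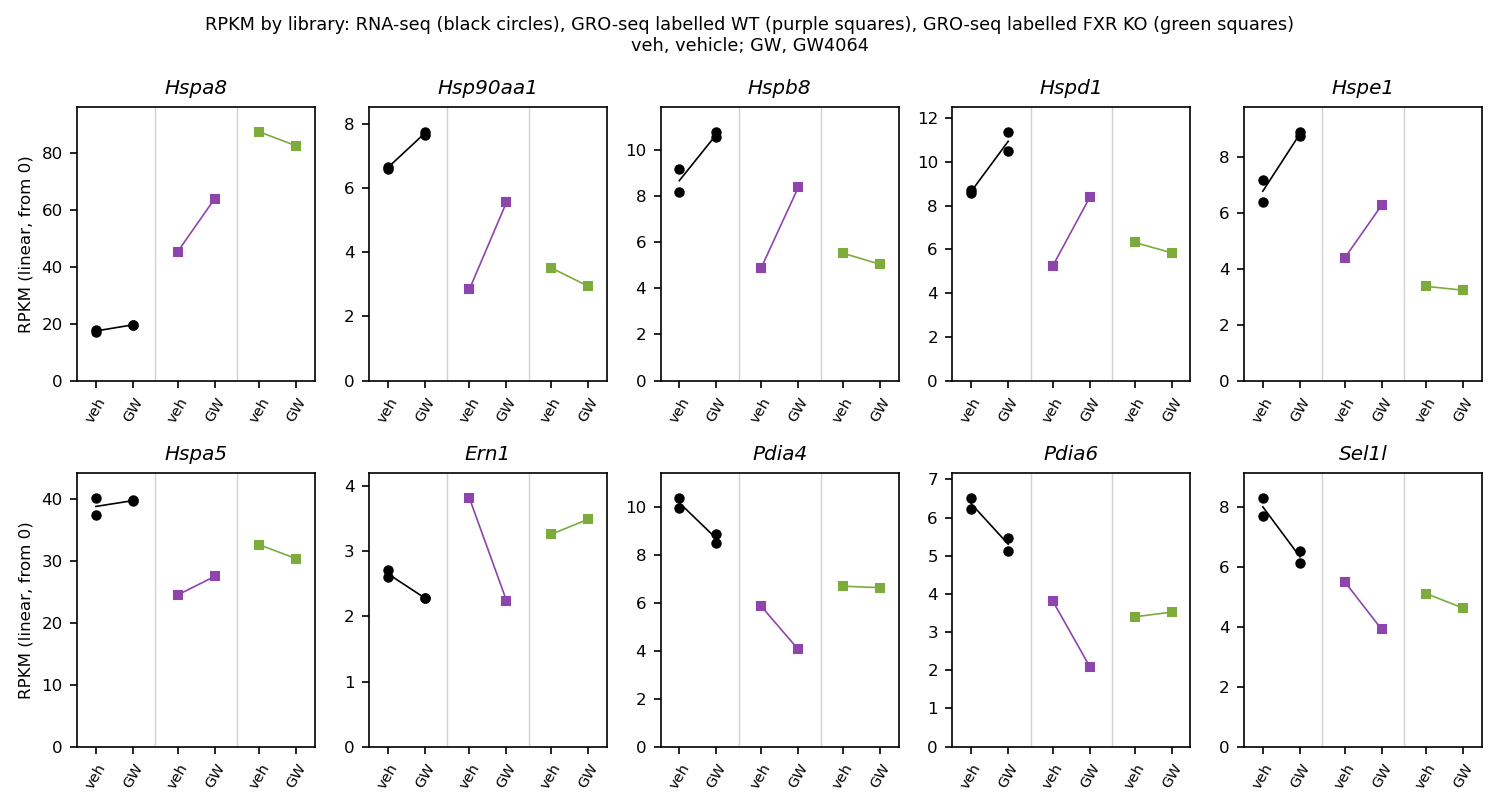
RPKM of 10 members in every library, on linear axes that start at 0. Black circles are the RNA-seq libraries (2 per treatment, line through the means), purple squares the GRO-seq libraries labelled WT and green squares those labelled FXR KO. Purple lines climb for Hspa8, Hsp90aa1, Hspb8, Hspd1 and Hspe1 and drop for Ern1, Pdia4, Pdia6 and Sel1l, and the green lines are flatter.

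Of the 3 ER stress sensors, Ern1 showed the clearest difference. Ern1, the IRE1 kinase and ribonuclease that splices Xbp1 mRNA (chr11:106397620-106487796), was at 2.71 and 2.60 RPKM with vehicle and 2.29 and 2.28 RPKM with GW4064 in RNA-seq (log2 fold change -0.21 ± 0.0519 SE, limma adjusted p = 0.147). The groups did not overlap. Its nascent RNA went from 3.82 to 2.24 RPKM in the libraries labelled WT, a fold of 0.587 (0.558 to 0.618, from 4888 and 2144 reads), and from 3.26 to 3.5 RPKM in those labelled FXR KO, a fold of 1.07 (0.998 to 1.15).

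Atf6, the sensor that is itself cut into a transcription factor (chr1:170704457-170867771), was at 2.23 and 2.06 RPKM with vehicle and 1.81 and 1.84 RPKM with GW4064 in RNA-seq (log2 fold change -0.22 ± 0.0617 SE, limma adjusted p = 0.172). Its GRO-seq fold was 0.824 (0.787 to 0.863) in the libraries labelled WT, from 2.10 to 1.73 RPKM, and 1.15 (1.08 to 1.23) in those labelled FXR KO, from 2.09 to 2.40 RPKM. The RNA-seq groups did not overlap, and the counting intervals of both genotypes did not overlap, at a size under 1.5-fold. Eif2ak3, the PERK kinase (chr6:70844515-70864825), was at 1.23 and 0.845 RPKM with vehicle and 0.803 and 0.729 RPKM with GW4064 in RNA-seq (log2 fold change -0.38 ± 0.195 SE, limma adjusted p = 0.368). It went from 1.40 to 1.28 RPKM in GRO-seq labelled WT and from 1.71 to 1.73 RPKM in GRO-seq labelled FXR KO, with both counting intervals across 1. The Eif2ak3 row stops 40420 bases before the end of the gene in GENCODE, so it measures the start of the gene.

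The ER stress transcription factors differed less than Ern1. Xbp1 and Atf4 lay slightly higher with GW4064 in RNA-seq, at 13.1 and 13.3 against 14.1 and 14.6 RPKM for Xbp1 (log2 fold change 0.12) and 16.2 and 15.4 against 17 and 17.9 RPKM for Atf4 (log2 fold change 0.14), and neither passed. Ddit3, which encodes CHOP, had widely spread libraries, 7.20 and 4.83 RPKM with vehicle and 6.44 and 5.04 RPKM with GW4064. GRO-seq folds in the libraries labelled WT were 0.916 for Xbp1, 1.18 for Atf4 and 0.838 for Ddit3, and in those labelled FXR KO 0.934, 0.947 and 0.853. These are RNA levels and do not measure Xbp1 splicing or ATF4 translation.

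Hspa5, which encodes BiP, the main ER HSP70 and the usual readout of the response (chr2:34772090-34776529), was level in RNA-seq, at 40.1 and 37.4 RPKM with vehicle and 39.8 and 39.6 RPKM with GW4064 (log2 fold change 0.04 ± 0.0643 SE, limma adjusted p = 0.798). The 95% interval of its fold ran from 0.904 to 1.16. In GRO-seq it went from 24.5 to 27.5 RPKM in the libraries labelled WT, a fold of 1.12 (1.04 to 1.21), and from 32.6 to 30.3 RPKM in those labelled FXR KO, a fold of 0.931 (0.838 to 1.03). The other ER chaperones were Hsp90b1 (GRP94), Calr (calreticulin), Canx (calnexin) and Hyou1 (an ER HSP110). Hsp90b1 and Canx had overlapping RNA-seq groups and GRO-seq folds of 0.944 to 1.08 in both genotypes. Calr was at 33.5 and 33.1 RPKM with vehicle and 35.1 and 35.5 RPKM with GW4064 in RNA-seq (log2 fold change 0.08), and its GRO-seq folds were 1.2 in the libraries labelled WT and 0.907 in those labelled FXR KO. Hyou1, described after its values were seen, was at 14.5 and 13.1 RPKM with vehicle and 12 and 11.8 RPKM with GW4064 in RNA-seq (log2 fold change -0.21 ± 0.0729 SE, limma adjusted p = 0.228), with GRO-seq folds of 0.87 and 1.01.

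The J-domain partners of BiP, Dnajb9 and Dnajc3, both had positive values in RNA-seq and in GRO-seq labelled FXR KO and differed in sign in GRO-seq labelled WT. Dnajb9 (chr12:44205897-44210068), encoding ERdj4, was at 8.26 and 6.83 RPKM with vehicle and 8.66 and 8.20 RPKM with GW4064 in RNA-seq, overlapping groups (log2 fold change 0.16 ± 0.113 SE, limma adjusted p = 0.482). In GRO-seq it went from 4.82 to 4.12 RPKM in the libraries labelled WT, a fold of 0.854 (0.705 to 1.03), and from 5.22 to 6.62 RPKM in those labelled FXR KO, a fold of 1.27 (0.982 to 1.64). Dnajc3, encoding P58IPK, had overlapping RNA-seq groups (log2 fold change 0.05) and GRO-seq folds of 1.03 and 1.12.

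The 3 protein disulfide isomerases, which form and rearrange disulfide bonds, had folds of 0.547 to 0.775 in nascent RNA labelled WT, of which that of Pdia6 alone was past 1.5-fold. Pdia6 (chr12:17266589-17284785) went from 3.81 to 2.09 RPKM, a fold of 0.547 (0.486 to 0.615), and from 3.40 to 3.52 RPKM in the libraries labelled FXR KO, a fold of 1.04 (0.885 to 1.21). In RNA-seq Pdia6 was at 6.52 and 6.22 RPKM with vehicle and 5.13 and 5.48 RPKM with GW4064 (log2 fold change -0.26 ± 0.0652 SE, limma adjusted p = 0.15). Pdia4 (chr6:47796141-47813512) showed the same order of groups. Its GRO-seq values went from 5.87 to 4.07 RPKM in the libraries labelled WT, a fold of 0.692 (0.633 to 0.757), and from 6.71 to 6.64 RPKM in those labelled FXR KO, a fold of 0.99 (0.882 to 1.11). In RNA-seq Pdia4 was at 10.4 and 9.99 RPKM with vehicle and 8.5 and 8.89 RPKM with GW4064 (log2 fold change -0.23 ± 0.0602 SE, limma adjusted p = 0.159). Pdia3, which works with calnexin and calreticulin, had a GRO-seq fold of 0.775 (0.725 to 0.827) in the libraries labelled WT and 1.05 in those labelled FXR KO, and overlapping RNA-seq groups.

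Of the ER-associated degradation genes, only Sel1l, the adaptor of the HRD1 ubiquitin ligase, stood apart from vehicle in RNA-seq, and it was described after its values were seen. Sel1l (chr12:91806043-91849157) was at 8.31 and 7.71 RPKM with vehicle and 6.14 and 6.55 RPKM with GW4064 (log2 fold change -0.33 ± 0.0718 SE, limma adjusted p = 0.118). Its nascent RNA went from 5.52 to 3.92 RPKM in the libraries labelled WT, a fold of 0.71 (0.67 to 0.752), and from 5.11 to 4.63 RPKM in those labelled FXR KO, a fold of 0.905 (0.831 to 0.986). Herpud1 and Edem1, the other two degradation genes, had overlapping RNA-seq groups (log2 fold changes 0.08 and -0.04) and GRO-seq folds of 1.03 and 1.09 in the libraries labelled WT and 1.08 and 1.25 in those labelled FXR KO.

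Set side by side, the cytosolic and ER medians of GW4064 over vehicle were apart in nascent RNA labelled WT. They were close together in nascent RNA labelled FXR KO and in RNA-seq. The median log2 ratio of GW4064 over vehicle in GRO-seq labelled WT was 0.30 for the 14 cytosolic genes kept, 0.51 for the 3 mitochondrial genes and -0.13 for the 19 ER genes, beside -0.09 for all 10169 genes. The ratio was above 0 for 13 of 14 cytosolic, 3 of 3 mitochondrial and 6 of 19 ER genes, beside 38% of all genes. In GRO-seq labelled FXR KO the medians were -0.03, -0.06 and 0.01, beside -0.02 for all genes, and the ratio was above 0 for 7 of 14, 0 of 3 and 11 of 19 genes, beside 45.5% of all genes. In RNA-seq the median log2 fold changes were 0.02 for the 15 cytosolic, 0.34 for the 3 mitochondrial and -0.04 for the 19 ER genes, beside -0.0028 for all genes tested. The cytosolic and ER medians in RNA-seq thus differed by little. The ER median lay close to that of all genes in GRO-seq labelled WT. The counting interval of the fold lay below 1 for 8 of 36 members, beside 32.8% of all genes, a share the members as a whole did not exceed. All 8 were among the 19 ER genes (Ern1, Atf6, Ddit3, Hyou1, Pdia3, Pdia4, Pdia6 and Sel1l). The interval lay above 1 for 15 of 36 (9 of 14 cytosolic, 3 of 3 mitochondrial and 3 of 19 ER), beside 17.5% of all genes. The width of a counting interval depends on read number, and the shares of all genes here and below were not matched for it. The difference between both genotypes could not be tested with 1 library each. On counting error alone, the interval of the fold in the libraries labelled WT lay wholly above that in the libraries labelled FXR KO for 7 of 36 members (Hspa8, Hsp90aa1, Hsp90ab1, Hspb8, Hspd1, Hspa5 and Calr), beside 10.7% of all genes. It lay wholly below it for 6 of 36, beside 13.7%, a share over all members that is near the background. All 6 were among the 19 ER genes (Ern1, Atf6, Pdia3, Pdia4, Pdia6 and Sel1l). The 7 above were 4 cytosolic, 1 mitochondrial and 2 ER genes.

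RNA-seq and GRO-seq used different animals and share no library, so their directions can be read against each other. RNA-seq and GRO-seq labelled WT gave the same sign for 28 of 36 members (77.8%), beside 69.2% of the 9992 genes measured in both. The share was 10 of 14 for cytosolic, 3 of 3 for mitochondrial and 15 of 19 for ER genes. With GRO-seq labelled FXR KO, the sign was the same for 16 of 36 members (44.4%), beside 54.1% of all genes. Across the 36 members, Pearson's r was 0.672 and Spearman's rho 0.64 between RNA-seq and GRO-seq labelled WT, and -0.062 and -0.125 for GRO-seq labelled FXR KO. Across all 9992 genes r was 0.433 and 0.078. Genes are not independent replicates, the members share these libraries, and Hspd1 and Hspe1 share a promoter.

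**Figure D5:**
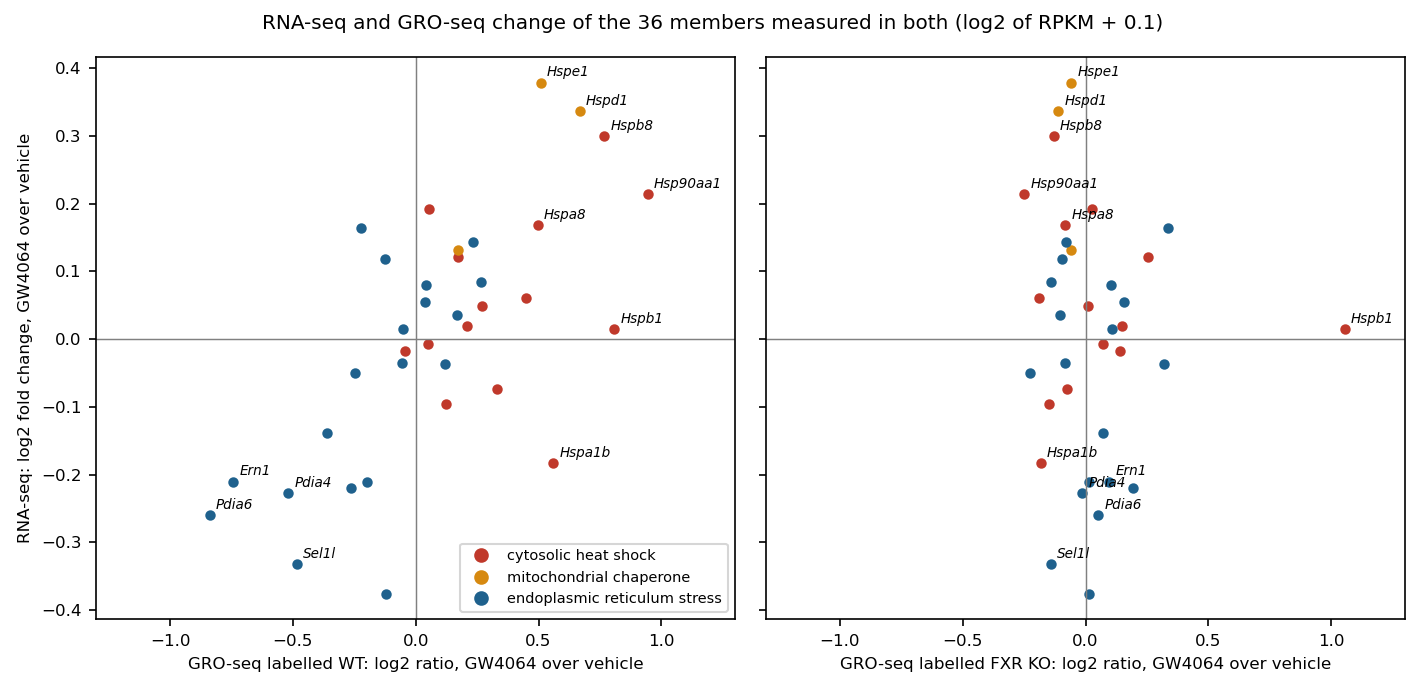
Log2 change of the 36 members kept in both assays, GW4064 over vehicle, with RNA-seq on the y axis and GRO-seq on the x axis (left, libraries labelled WT; right, libraries labelled FXR KO). Each point is a gene, coloured by group. On the left, Hsp90aa1, Hspb8, Hspd1, Hspe1 and Hspa8 lie at the upper right and Pdia6, Ern1, Pdia4 and Sel1l at the lower left, and on the right the same genes lie between -0.25 and 0.10 on the x axis.

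The libraries labelled FXR KO were also compared with those labelled WT within each treatment, where genotype and library cannot be told apart. These ratios use the same 4 libraries as the GW4064 ratios above and are given beside them, not as further support. With vehicle, FXR KO over WT was past 1.5-fold higher for 2 of 36 members, Hspa8 (45.2 and 87.3 RPKM, WT first) and Hspa1b (1.63 and 3.60 RPKM), beside 5.83% of all genes. It was lower for 1, Hspb1 (1.07 and 0.237 RPKM, 25 and 2 reads), beside 5.77%. With GW4064, FXR KO over WT was higher for 4 members, all ER genes: Ern1 (2.24 and 3.5 RPKM, a fold of 1.56), Dnajb9 (4.12 and 6.62 RPKM, 1.61), Pdia4 (4.07 and 6.64 RPKM, 1.63) and Pdia6 (2.09 and 3.52 RPKM, 1.69), beside 6.45%. It was lower for 4 members, none of them ER genes: Hsp90aa1 (5.57 and 2.94 RPKM, a fold of 0.529), Hspb1 (1.95 and 0.600 RPKM, 0.307), Hspb8 (8.39 and 5.05 RPKM, 0.602) and Hspe1 (6.29 and 3.24 RPKM, 0.515), beside 7.74%. The vehicle library labelled FXR KO was thus already higher for Hspa8, and Hspa8 stayed higher in the libraries labelled FXR KO with GW4064 (63.9 and 82.4 RPKM).

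Other genes of the same pathways were read the same way, from lists by function that were chosen with earlier results of these data known. None of 40 further cytosolic proteostasis genes tested, 6 mitochondrial, 48 ER folding and unfolded protein response and 16 integrated stress response genes passed limma in RNA-seq. At an unadjusted p under 0.05 limma gave 5 higher and 3 lower, 2 and 0, 4 and 2, and 3 and 0 of them, in that order, beside 10.6% of all genes each way, so the cytosolic and ER lists were near or under the background. Limma-voom passed 0 higher and 1 lower, 0 and 0, 4 and 2, and 1 and 0, beside 4.58% higher and 4.22% lower. Among further cytosolic genes, Tcp1, a subunit of the TRiC chaperonin, went from 18.7 to 29.6 RPKM in GRO-seq labelled WT. Fkbp5, a glucocorticoid-responsive HSP90 co-chaperone, went from 12 to 6.08 RPKM (RNA-seq log2 fold change -0.60, limma adjusted p = 0.0687), and Hsf2, a second heat shock factor gene, from 3.12 to 2.03 RPKM.

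The further ER genes held both directions too. Pdia5, a relative of the 3 disulfide isomerases above, went the other way, from 1.41 to 4.47 RPKM in GRO-seq labelled WT and from 2.89 to 3.02 RPKM in GRO-seq labelled FXR KO (RNA-seq log2 fold change 0.38, limma adjusted p = 0.0949). Ero1lb, an oxidase that recharges them, went from 1.88 to 4.4 RPKM and from 1.41 to 1.28 RPKM (RNA-seq log2 fold change 0.84, limma adjusted p = 0.0619). Ero1l, of the same list and described after its values were seen, went from 0.817 to 0.535 RPKM in GRO-seq labelled WT. In GRO-seq labelled FXR KO it went from 0.663 to 0.611 RPKM (RNA-seq log2 fold change -0.12, limma adjusted p = 0.429). Sec61b, of the translocon, went from 0.947 to 0.573 RPKM in GRO-seq labelled WT. Over the 46 further ER genes kept, 4 were past 1.5-fold higher and 1 lower in GRO-seq labelled WT, beside 6.1% and 6.83% of all genes. Their median log2 ratio was -0.13, beside -0.09 for all genes. Of 13 integrated stress response genes, 3 were higher and 0 lower, beside the same 6.1% and 6.83%. Among the 3 were Ddit4 (2.42 to 4.37 RPKM, and 6.41 to 3.11 RPKM in GRO-seq labelled FXR KO) and Trib3 (0.447 to 0.797 RPKM).

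Immediate early genes, which answer to handling as well as to signals, also differed in the same libraries. Of 11 tested, 1 passed limma in RNA-seq, beside 2.13% of all genes higher. This was Ier2, from 5.19 and 4.77 to 8.64 and 9.87 RPKM (log2 fold change 0.88, limma adjusted p = 0.0373). At an unadjusted p under 0.05 limma gave 6 higher and 0 lower, beside 10.6% of all genes each way. Limma-voom passed 3 higher and 0 lower, beside 4.58% and 4.22%. Of 11 kept in GRO-seq, 7 were past 1.5-fold higher (beside 6.1% of all genes) and 0 lower (6.83%) in the libraries labelled WT. Among the 7 were Jun (2.72 to 7.73 RPKM) and Fos (1.25 to 2.59 RPKM). In the libraries labelled FXR KO, 2 were higher (2.61%) and 1 lower (3.11%). Fos was 1 of those 2, from 0.402 to 1.22 RPKM (7 and 21 reads). Their summed level was 65.5 and 51.7 RPKM with vehicle and 80.1 and 89.7 RPKM with GW4064 in RNA-seq. In GRO-seq it was 49.1 and 89.6 RPKM in the libraries labelled WT, vehicle first, and 37 and 36.1 RPKM in those labelled FXR KO. Their part in the chaperone values was not tested.

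The summed markers of cholangiocytes and of other blood cells varied most between RNA-seq libraries, and both sums were highest in GW4064 replicate 2. Of the blood cell markers, only S100a8 (2.67 RPKM) and S100a9 (1.46 RPKM) were highest in that library. Ptprc, Cd3e, Cd79a, Ms4a1 and Nkg7 were not. No marker passed limma, at adjusted p, in any of 6 lists. Tested were 11 hepatocyte, 5 Kupffer cell, 7 stellate, 7 sinusoidal endothelial, 2 cholangiocyte and 3 other blood cell markers. At an unadjusted p under 0.05 limma gave 2 higher and 2 lower, beside 10.6% of all genes each way. Limma-voom passed 0 higher and 1 lower, the hepatocyte gene Ttr, beside 4.58% and 4.22% of all genes. The 11 hepatocyte markers summed to 581 and 587 RPKM with vehicle and 546 and 615 RPKM with GW4064 in RNA-seq. In GRO-seq they summed to 841 and 950 RPKM in the libraries labelled WT and to 1399 and 1352 RPKM in those labelled FXR KO. With vehicle, 7 of 11 were past 1.5-fold higher in FXR KO than in WT, beside 5.83% of all genes. With GW4064, 5 of 11 were, beside 6.45%. In GRO-seq labelled WT, Tat was past 1.5-fold higher (71.9 to 137 RPKM) and Ttr lower (63.1 to 35.9 RPKM). The 7 Kupffer cell markers summed to 15.5 to 16.7 RPKM in RNA-seq, the 7 sinusoidal endothelial markers to 24.7 to 25.7 RPKM, the 7 stellate markers to 7.79 to 10.1 RPKM, the 6 cholangiocyte markers to 4.05 to 7.78 RPKM and the 7 other blood cell markers to 2.71 to 5.18 RPKM. In GRO-seq labelled WT, vehicle first, these lists summed to 5.77 and 6.96, 14.2 and 17.4, 4.3 and 3.56, 2.8 and 2.93, and 8.43 and 6.46 RPKM, in that order. In GRO-seq labelled FXR KO they summed to 8.11 and 5.86, 15.4 and 13.3, 3.47 and 3.82, 2.86 and 3.3, and 2.83 and 3.62 RPKM. The blood cell genes S100a8 and S100a9, the only 2 of the 7 kept in GRO-seq, were past 1.5-fold lower in FXR KO than in WT in both treatments. In the libraries labelled FXR KO, vehicle first, they had 7 and 9 reads (S100a8) and 9 and 14 reads (S100a9). Of the other blood cell markers, none of them kept, Ptprc, Cd79a and Ms4a1 were higher in FXR KO than in WT in both treatments. Ptprc had 217 to 558 reads per library, Cd79a only 5 to 7 and Ms4a1 only 7 to 17. Cd3e (1 to 9 reads) and Nkg7 (0 to 1 reads) differed in direction between treatments. None of these markers was at 0 in an RNA-seq library, and 1 blood cell marker was at 0 in GRO-seq labelled FXR KO with vehicle. The part of cell makeup in the member values was not tested.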

How the data were processed

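The deposited values were RPKM per gene row, made by the authors from reads aligned to mm10 with STAR 2.7.3a and counted with HOMER. The labels name a TruSeq stranded kit and the methods Kapa HyperPrep. Whole reads were rebuilt from RPKM, row length and library total, and 100% of the values tested were whole within 0.15 reads.

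RNA-seq was tested with limma 3.58.1 in R 4.3.3 on log2(RPKM + 0.1), with a trend and Benjamini-Hochberg adjustment over the 11408 genes averaging 0.5 RPKM or more. Limma-voom on the rebuilt reads was an alternative. GRO-seq had 1 library per group and no test. There, 10169 genes averaging 0.5 RPKM or more were kept, and calls needed 1.5-fold and 20 reads. Alternatives changed the RPKM added, the filter, the scaling, the trend, the block, the fold and the libraries.

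The members and lists were chosen with earlier results of these data known. Full values were given for members past the RNA-seq test or 1.5-fold in any GRO-seq comparison, the 3 sensors, Hsf1, Hspa5, Hspa8 and Hsp90ab1, and from other lists for genes past the RNA-seq threshold (at most the 4 with the smallest p) and at most the 2 largest and 2 smallest ratios past 1.5-fold. The result for 1 gene of another list is not reported here.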

Additional observations from a re-analysis of the deposited data

How the results depend on the processing

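Of the 37 members, 27 kept the sign of their RNA-seq change in every alternative that used all libraries, and 19 also when each library was left out. Limma-voom passed 1 mitochondrial member higher and 1 ER member lower (1 and 1 over all members) where limma passed none. The replicate block passed 0 members higher and 0 lower, as it passed 0 of all 11408 genes either way, and left the medians at 0.0197 (cytosolic), 0.3364 (mitochondrial) and -0.0366 (ER). Same-numbered libraries did not deviate together (correlation -0.0215), so the numbers were not read as a pairing. Quantile normalization moved the ER median to -0.1067 and turned the log2 fold changes of Hsf1 (0.0038), Hsph1 (-0.0071), Hsp90ab1 (-0.0912), Bag3 (-0.0147), Atf4 (-0.0102), Hspa5 (-0.1002), Calr (-0.0713), Canx (-0.0552), Dnajc3 (-0.0036) and Herpud1 (-0.0813). The cause was not tested.

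Over all genes, limma passed 32 higher and 11 lower without vehicle replicate 1 and 0 and 0 without each of the other libraries, in place of 243 and 131. Leaving out 1 RNA-seq library at a time gave medians from -0.0031 to 0.0748 for cytosolic and from -0.0913 to 0.0272 for ER members, the upper values both without vehicle replicate 1. The log2 fold change crossed 0 for Hsf1 (-0.0685 to 0.0352), Hspa1b (-0.4173 to 0.0516), Hsph1 (-0.0268 to 0.1259), Dnaja1 (-0.0031 to 0.2456), Dnajb1 (-0.1711 to 0.0241), Bag3 (-0.1403 to 0.1798), Chordc1 (-0.0148 to 0.0012), Ddit3 (-0.332 to 0.2331), Hspa5 (-0.016 to 0.0868), Hsp90b1 (-0.0913 to 0.0213), Canx (-0.0403 to 0.0705), Dnajc3 (-0.041 to 0.1507), Pdia3 (-0.3026 to 0.0272), Herpud1 (-0.0083 to 0.1679) and Edem1 (-0.0872 to 0.0141).

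In GRO-seq labelled WT, median centring gave 5 cytosolic and 2 mitochondrial members higher (7 in all). A 2-fold threshold gave 0 higher and 0 lower in each group (2.55% and 1.61% of all genes), and adding 1 RPKM gave 1 ER member lower (1 in all). For FXR KO over WT with vehicle, 2-fold left 1 cytosolic member higher (1 in all), a mean of at least 1 RPKM left 0 cytosolic members lower (0 in all), and median centring gave 1 ER member higher. With GW4064, 2-fold left 1 cytosolic and 0 mitochondrial members lower (1 in all) and 0 ER members higher (0 in all), and adding 1 RPKM left 1 ER member higher (1 in all). Reading 2 units as a heat shock element gave 8 cytosolic and 1 ER window in place of 2 and 0. Depth limits Hspa1a, Hspa1b and Hspb1 in GRO-seq.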
